A study of Sus scrofa with 8 samples.

Results

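The probe sets described here measure genes of the ubiquitin system in the pig oviduct. These are activating enzymes named UBA, conjugating enzymes named UBE2, UBR ligases, F-box proteins named FBX and ubiquitin-specific proteases named USP. They were taken by gene symbol from the annotation of the Affymetrix Porcine array, where a probe set had to carry a single symbol of these families, and the 1 probe set of USP18, an interferon response gene, was left out. This gave 110 probe sets for 63 genes, out of 23999 probe sets tested and 10069 with a single symbol. Another 4 probe sets carried such a symbol together with a second gene and were left out.

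The question asked of the arrays was whether the oviduct answers Y-spermatozoa and X-spermatozoa differently. Each of 4 weaned Landrace × Large White sows, before ovulation, received flow-sorted Y-spermatozoa in one oviduct and X-spermatozoa in the other by laparoscopy, after both uterine horns had been closed off with staples. The semen came from several fertile boars, and every oviduct, of either group, received sorted and stained spermatozoa, so neither group is an untreated oviduct. Cells scraped from the mucosa were taken 24 h later, which gave 4 Y-spermatozoa arrays and 4 X-spermatozoa arrays. The replicate number shared by a Y and an X array was taken to stand for the sow, which the labels do not state outright.

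Ubiquitin is a small protein that is attached to other proteins in a relay. An activating enzyme (E1) charges it, a conjugating enzyme (E2) carries it, and a ligase (E3) places it on the target. F-box proteins are the parts of cullin-based ligases that pick the target, and ubiquitin-specific proteases take ubiquitin off again. Through these steps cells mark proteins for the proteasome, sort membrane proteins and regulate DNA repair, the cell cycle and the turnover of mitochondria. Close relatives of ubiquitin, NEDD8 and SUMO, run through E1 and E2 enzymes of the same families.

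Values are the deposited signals of each probe set, and differences are Y-spermatozoa minus X-spermatozoa on the log2 scale after quantile normalization, tested with limma. Background was taken as the 95th percentile of 64 reporter probe sets with no pig target, 10.67 on average over the arrays. Of the 110 probe sets, 103 (93.6%) had a mean signal above background, against 74.5% of all probe sets, and 90 (81.8%) were above it on all 8 arrays, against 65% of all. Median signals of the arrays ran between 38.7 and 41.2, and the number of arrays limits the precision. Probe sets bind with different strength, so no signal is read as a level against that of another probe set. Sums of marker signals, given below, weigh the brighter probe sets most. OVGP1, the secreted oviduct glycoprotein, and the epithelial genes EPCAM, KRT8, KRT18, KRT19 and CDH1 were above background on all 8 arrays, as were all 4 measured smooth muscle genes. PTPRC, which marks leukocytes, was above background on 2 arrays and was one of 2 cell type markers past an unadjusted p of 0.05 in limma, with a difference of 0.78. The other was PRM1, a protamine of sperm, at 1.5 to 3.1 with Y-spermatozoa and 0.8 to 1.2 with X-spermatozoa (limma unadjusted p = 0.000956), which was below background on all 8 arrays and so gives no readable level. PRM2, also a sperm protamine, was above background on 6 arrays and leaned the other way, with a difference of -0.45 (limma unadjusted p = 0.378). The sum of the 4 measured leukocyte markers ran between 48.8 and 109.3 with Y-spermatozoa and between 58.6 and 68.6 with X-spermatozoa. Of these, CD3E and CD163 were above background on all 8 arrays, with differences of -0.21 and 0.06. CD14 was above it on 4 arrays, with a difference of 0.36. In such mixed samples, fewer cells of a type and less RNA per cell cannot be told apart.

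Few genes of the ubiquitin system passed a test between the sperm types, and how many depended on whether the oviducts of a sow were paired. In the unpaired limma fit, at an unadjusted p under 0.05, 1 of the 110 probe sets (0.909%) was called, against 855 of all 23999 (3.56%). It was lower with Y-spermatozoa, a direction in which 1.94% of all probe sets were called, and 0 of the 110 were called higher, against 1.62% of all. With the sow as a block, 8 of the 110 (7.27%) were called, against 5.09% of all, so the members' share lay below that of all probe sets in the unpaired fit and above it in the paired one. After Benjamini-Hochberg adjustment over all probe sets, 0 of the 110 and 0% of all passed in either fit. In 0 of the 110 did the 4 Y-spermatozoa arrays lie clear of the 4 X-spermatozoa arrays, which 2.07% of all probe sets did.

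The differences were also small. Their median over the 110 probe sets was -0.03, against 0.00 over all probe sets, with 50 above 0 and 60 below. Taken sow by sow, the median over the 110 was -0.08, -0.02, -0.01 and 0.02. Among the 103 above background, differences ran from -0.68 to 0.53, with a median standard error of 0.160 against 0.182 for all probe sets above background. Standard errors and intervals here are those of the unpaired fit, and pairing the oviducts of a sow changes them. For 85 of these 103 (82.5%) the 95% interval lay within 1 of 0 on the log2 scale, that is within a doubling either way, against 86.7% of all probe sets above background. For 61 of them (59.2%) it lay within 0.5 of 0, against 41.6% of all. For the remaining 18 the interval reached past a doubling or a halving.

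Grouped by role, the median difference was -0.11 for the 6 E1 probe sets, -0.03 for the 40 E2 probe sets, -0.03 for the 39 F-box probe sets and 0.02 for the 23 USP probe sets. The E1 probe sets were those of UBA2 and UBA3, which serve SUMO and NEDD8, so no activating enzyme of ubiquitin itself was among them. The 2 probe sets of UBR7, the UBR-family ligase measured here, had differences of -0.05 and 0.15. Directions this close to 0 turned with the scaling: with each array centred on its median the E2 median was 0.00186, the F-box median 0.02 and the median over all 110 was 0.00632, and under the deposited scaling the USP median was -0.02. The plot of differences by role shows the intervals of the unpaired fit overlapping 0 throughout, with a single exception among the USP genes.

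**Figure D1:**
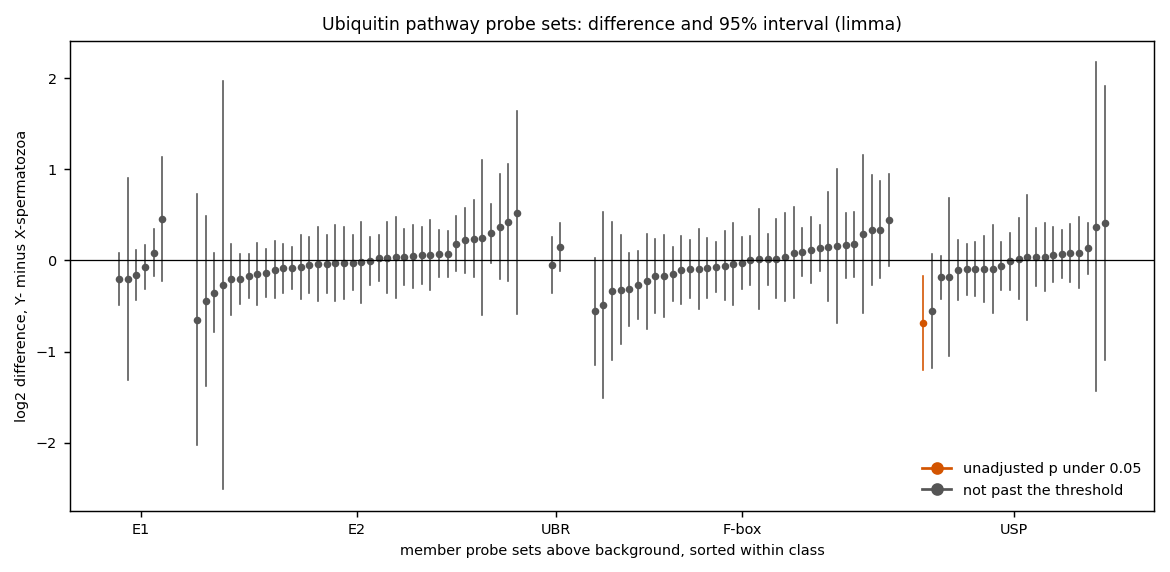
Log2 difference (vertical axis, Y- minus X-spermatozoa, 4 arrays each) of the 103 probe sets above background, sorted within each role along the horizontal axis. Bars are 95% intervals of the unpaired limma fit. Of all bars, 1 (USP30, orange) leaves out 0, and the widest belong to UBE2C, USP36, USP4 and UBE2T.

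The exception was USP30, a deubiquitinase of the mitochondrial outer membrane that removes ubiquitin from mitochondria and thereby restrains their clearance. Its signal was 12.9, 7.4, 12 and 8.4 with Y-spermatozoa in sows 1 to 4, and 19.2, 12.8, 16.3 and 19.5 with X-spermatozoa. It was lower with Y-spermatozoa in 4 of 4 sows, yet the groups overlapped slightly, since 12.9 in one Y-spermatozoa oviduct exceeded 12.8 in one X-spermatozoa oviduct. The mean was 10.2 ± 2.68 with Y-spermatozoa and 17.0 ± 3.12 with X-spermatozoa (SD, n = 4 each). The difference was -0.68 (standard error 0.22, 95% interval -1.20 to -0.17, limma unadjusted p = 0.0161, adjusted p = 1). The exact permutation test over the arrays gave p = 0.0571 for it, where 0.0286 is the smallest p that 4 arrays against 4 allow. That test ignores the pairing, and sign flips within the 4 sows cannot give a p below 0.125.

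USP30 is a dim probe set. It was above background on 6 of the 8 arrays, and the Y-spermatozoa arrays of sows 2 and 4 were below it, so the size of the difference depends on signals that background sets in part. The call stayed when any array was left out (limma unadjusted p between 0.00892 and 0.0450 over 8 fits) and when any sow was left out with the sow as a block (0.0177 to 0.0410 over 4 fits). With signals under background raised to background, the difference was -0.50. A single probe set measures USP30, so no other can be set beside it.

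FBXL4, a mitochondrial F-box protein whose loss in humans depletes mitochondrial DNA, was the member in the study's own list of altered transcripts. That list was made from these same arrays, so its place here is no independent evidence. The study also names FBXW11, another F-box gene, among altered genes of signalling pathways, and FBXW11 had no probe set chosen by the symbol rule and was not analysed here. The probe set of that list had signals of 23.3, 26.4, 30.9 and 37.7 with Y-spermatozoa, and 41.1, 29.2, 62.6 and 49.1 with X-spermatozoa. Every sow was lower with Y-spermatozoa, most in sow 3 and least in sow 2, and the groups overlapped. The mean was 29.6 ± 6.25 with Y-spermatozoa and 45.5 ± 14.03 with X-spermatozoa (SD, n = 4 each), a difference of -0.56 (standard error 0.25, limma unadjusted p = 0.0601, adjusted p = 1). With the sow as a block the same difference had a limma unadjusted p of 0.0358. With the hybridisation controls as a covariate it was -0.26, with a larger standard error of 0.43. The other FBXL4 probe set was below background on all 8 arrays, between 0.1 and 1.9 with Y-spermatozoa and between 0.4 and 3.1 with X-spermatozoa, and bears on no level.

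FBXO7, an F-box protein that takes part with parkin in clearing damaged mitochondria, did not separate the sperm types. Its signals were 223.3, 138.3, 161.9 and 137.2 with Y-spermatozoa and 212.1, 144.2, 134.4 and 135.1 with X-spermatozoa, a difference of 0.08 (standard error 0.22). Both oviducts of sow 1 were the highest of their group. FBXO7 was singled out after its values were seen.

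Of the 8 probe sets called with the sow as a block, 3 were higher and 5 lower with Y-spermatozoa. With the sow as a random block 6 were called, against 6.08% of all. Unpaired, 2 were called under the deposited scaling (3.76% of all), 2 with a pseudocount of 16 (3.39%), 4 with a floor at background (3.23%) and 0 of the 74 members among the brighter probe sets (2.59%). The calls in the block fit were USP30, both FBXL4 probe sets, FBXO21, FBXO2, FBXW7 and a pair of UBE2D4 probe sets that went in opposite directions. On normalized values in 9 of the 110 (8.18%) every sow was higher with Y-spermatozoa, against 6.44% of all probe sets, and in 11 (10%) every sow was lower, against 6.71%.

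FBXO21, an F-box protein, was called with the sow as a block on a bright probe set, and it was named after its values were seen. Its signals were 237.6, 157.2, 210.9 and 247.1 with Y-spermatozoa, and 284.6, 227.7, 248.6 and 291.9 with X-spermatozoa. Sow 2 was lowest and sow 4 highest in both groups, each sow was lower with Y-spermatozoa, and the groups overlapped. The difference was -0.32 (standard error 0.17), with a limma unadjusted p of 0.101 without the block and 0.0293 with it. The other 3 FBXO21 probe sets above background had differences of -0.04, 0.02 and 0.14, so the gene as a whole had no single direction.

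FBXO2, FBXO6 and FBXO44 belong to a group of F-box proteins of which FBXO2 and FBXO6 bind sugar chains of misfolded glycoproteins. FBXO2 exceeded its X-spermatozoa level in each of the 4 sows, by 0.29 on average (standard error 0.37, limma unadjusted p = 0.464, and 0.0404 with the sow as a block). FBXO44, named after its values were seen, had signals of 58.0, 42.1, 46.9 and 38.0 with Y-spermatozoa and 38.2, 40.8, 24.1 and 36.8 with X-spermatozoa. It was higher in 4 of 4 sows, by 0.44 (standard error 0.22, limma unadjusted p = 0.0768), and sows 1 and 3 carried most of the difference. FBXO6 had one probe set at 0.33 and another at -0.49, neither past the test.

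**Figure D2:**
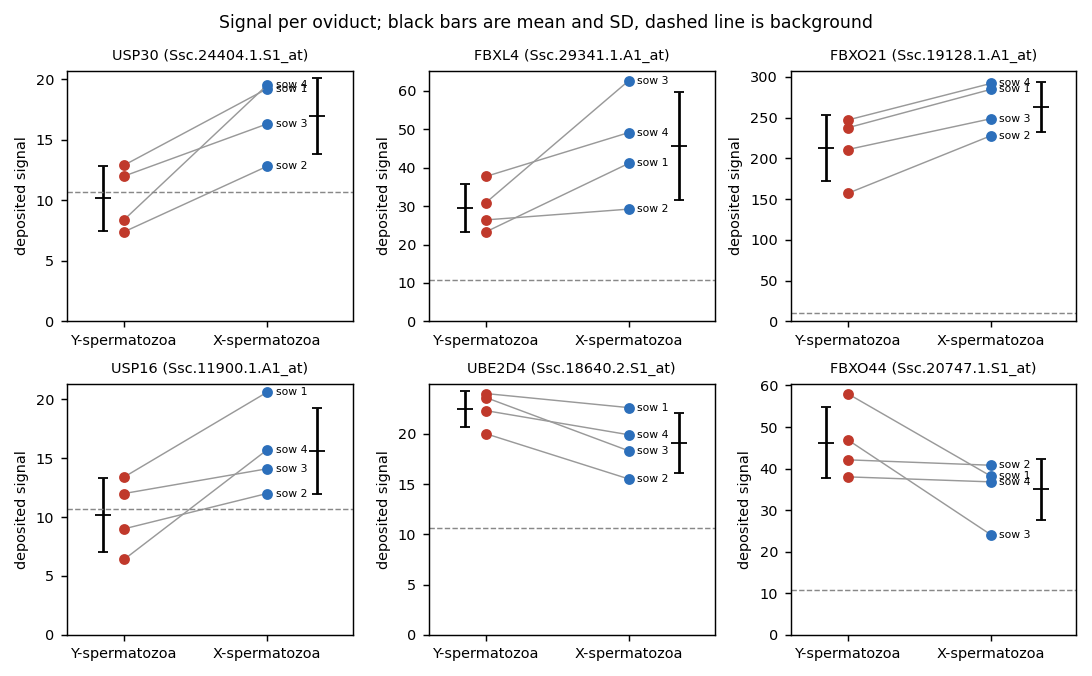
Deposited signal per oviduct (vertical axis) with Y-spermatozoa (left, red) and X-spermatozoa (right, blue) for 6 probe sets; grey lines join the oviducts of a sow, black bars are mean and SD (n = 4), and mean background, 10.67, is drawn as a dashed line. USP30 lies near background, at 7.4 to 12.9 with Y-spermatozoa and 12.8 to 19.5 with X-spermatozoa, while FBXO21 lies far above it, and the groups overlap in all 6.

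Among the activating enzymes, UBA2, which activates SUMO, had signals of 240.6, 233.5, 252.2 and 252.6 with Y-spermatozoa and 277.0, 237.2, 238.8 and 275.6 with X-spermatozoa. The difference was -0.07 (standard error 0.10, 95% interval -0.31 to 0.17), and the groups overlapped. UBA3, the catalytic part of the NEDD8-activating enzyme, had 5 probe sets. Its brightest measured 388.9, 308.2, 399.0 and 368.2 with Y-spermatozoa and 422.0, 412.7, 383.0 and 397.8 with X-spermatozoa, a difference of -0.16 (standard error 0.12). Sow 2 set most of that gap. The other 4 ran from -0.20 to 0.45, none past the test.

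No difference was called for the conjugating enzymes of the NEDD8 branch either. UBE2M averaged 75.1 ± 14.3 with Y-spermatozoa and 71.6 ± 7.80 with X-spermatozoa (SD, n = 4 each), a difference of 0.06 (standard error 0.17). UBE2F, its relative, averaged 125 ± 21.3 with Y-spermatozoa and 107 ± 19.9 with X-spermatozoa, a difference of 0.24 (standard error 0.18). Neither passed the test, and the interval of UBE2F ran from -0.19 to 0.66.

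UBE2D2, UBE2D3 and UBE2D4 are close relatives that serve many ligases. UBE2D2 measured 727.0, 883.2, 627.5 and 852.7 with Y-spermatozoa and 866.7, 780.1, 721.1 and 853.4 with X-spermatozoa on its brightest probe set, a difference of -0.10 (standard error 0.13), and its other 2 probe sets had -0.17 and -0.03. UBE2D3 averaged 208 ± 12.6 with Y-spermatozoa and 209 ± 19.95 with X-spermatozoa (SD, n = 4 each), a difference of -0.01 (standard error 0.11, 95% interval -0.27 to 0.25), which turned to 0.03 with arrays centred on their median. UBE2D4 gave no single answer. Its dimmest probe set, above background on 4 arrays, measured 5.0, 9.2, 7.5 and 14.4 with Y-spermatozoa and 7.0, 15.7, 11.4 and 17.5 with X-spermatozoa, lower in every sow, a difference of -0.44 (standard error 0.40). The second measured 24.0, 20.0, 23.6 and 22.3 with Y-spermatozoa and 22.6, 15.5, 18.3 and 19.9 with X-spermatozoa, higher in every sow, a difference of 0.30 (standard error 0.14). The remaining UBE2D4 probe set had a difference of 0.42 (standard error 0.28).

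UBE2N, which builds signalling chains together with UBE2V1 or UBE2V2, measured 198.0, 340.3, 258.4 and 333.3 with Y-spermatozoa and 246.3, 293.1, 264.8 and 270.1 with X-spermatozoa. The Y-spermatozoa arrays spread more widely than the others and enclosed them, and the difference was 0.03 (standard error 0.19). UBE2V1 averaged 437 ± 35.3 with Y-spermatozoa and 426 ± 27.2 with X-spermatozoa (SD, n = 4 each) on its brightest probe set, a difference of 0.03 (standard error 0.11). UBE2V2 averaged 195 ± 17.1 with Y-spermatozoa and 224 ± 17.3 with X-spermatozoa, a difference of -0.20 (standard error 0.12, limma unadjusted p = 0.121).

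UBE2K, an enzyme that builds chains for the proteasome, averaged 146 ± 20.5 with Y-spermatozoa and 152 ± 29.4 with X-spermatozoa (SD, n = 4 each), a difference of -0.04 (standard error 0.18). UBE2L3, a partner of parkin and of the HECT ligases, measured 63.8, 74.4, 61.0 and 70.4 with Y-spermatozoa and 52.8, 72.4, 33.5 and 61.0 with X-spermatozoa. It was higher in 4 of 4 sows, by 0.37 (standard error 0.25, limma unadjusted p = 0.178), with the widest gap in sow 3, and its other probe set had a difference of 0.04. UBE2C, the mitotic enzyme of the anaphase-promoting complex, measured 1.8, 20.8, 24.9 and 32.8 with Y-spermatozoa and 6.3, 29.7, 16.6 and 25.5 with X-spermatozoa. Both oviducts of sow 1 were below background, and the interval of its difference, -2.51 to 1.97, excludes little.

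FBXW7, the F-box protein that targets cyclin E, MYC and Notch, had 5 probe sets, all above background on 8 arrays. The brightest measured 205.6, 191.1, 142.7 and 156.9 with Y-spermatozoa and 185.0, 182.3, 175.4 and 192.9 with X-spermatozoa, a difference of -0.09 (standard error 0.14). The 4 others had differences of -0.33, -0.27, -0.15 and 0.34, the last of which was higher with Y-spermatozoa in every sow while the first was lower in every sow. FBXL5, the iron-sensing F-box protein, averaged 490 ± 31.1 with Y-spermatozoa and 514 ± 60.7 with X-spermatozoa (SD, n = 4 each) on the probe set above background, a difference of -0.07 (standard error 0.12).

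Among the deubiquitinases, USP7, which acts on p53 and its ligase MDM2, measured 567.5, 461.5, 476.9 and 476.5 with Y-spermatozoa and 491.9, 463.4, 565.8 and 575.7 with X-spermatozoa. The difference was -0.09 (standard error 0.13, 95% interval -0.39 to 0.20), and its other probe set had -0.11. USP9X measured 474.3, 482.7, 546.6 and 550.1 with Y-spermatozoa and 497.4, 495.5, 467.6 and 398.4 with X-spermatozoa, higher in sows 3 and 4 and lower in sows 1 and 2, a difference of 0.13 (standard error 0.12). USP28, a partner of FBXW7 in the control of MYC, was named after its values were seen. It measured 100.8, 99.8, 114.9 and 96.2 with Y-spermatozoa and 116.3, 111.0, 126.2 and 115.9 with X-spermatozoa. It was lower in 4 of 4 sows, with log2 differences from -0.25 to -0.12, and sow 3 was highest in both groups. The difference was -0.18 (standard error 0.10, limma unadjusted p = 0.108, and 0.0930 with the sow as a block).

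USP16, which removes ubiquitin from histone H2A, had a dim probe set at 13.4, 9.0, 12 and 6.4 with Y-spermatozoa and 20.6, 12, 14.1 and 15.7 with X-spermatozoa, lower in 4 of 4 sows by 0.56 on the log2 scale (standard error 0.27, limma unadjusted p = 0.0737). Its 2 brighter probe sets had differences of 0.07 and 0.03. This probe set too was named after its values were seen.

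Where a gene had several probe sets, their differences often had opposite signs. Of the 63 genes, 30 had more than 1 probe set and 24 had more than 1 above background. In 10 of these 24 all differences had 1 sign, and in 14 they did not. The share over all genes with several probe sets was not computed, and differences near 0 can take either sign. The spread was widest in UBE2D4 (-0.44 to 0.42), FBXO6 (-0.49 to 0.33), FBXW7 (-0.33 to 0.34) and UBA3 (-0.20 to 0.45). The low ends of UBE2D4 and FBXO6 and the high end of UBA3 came from probe sets above background on 4, 7 and 7 arrays. USP7 (-0.11 and -0.09) and USP10 (-0.10 and -0.09) agreed closely, and so did the 3 probe sets of FBXW9, at 0.04 to 0.18. Probe sets whose name ends in _a_at or _s_at can detect several transcripts, which was so for 8 and 2 of the 110. The plot of probe sets by gene shows that the spread within genes reaches the size of the differences named above.

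**Figure D3:**
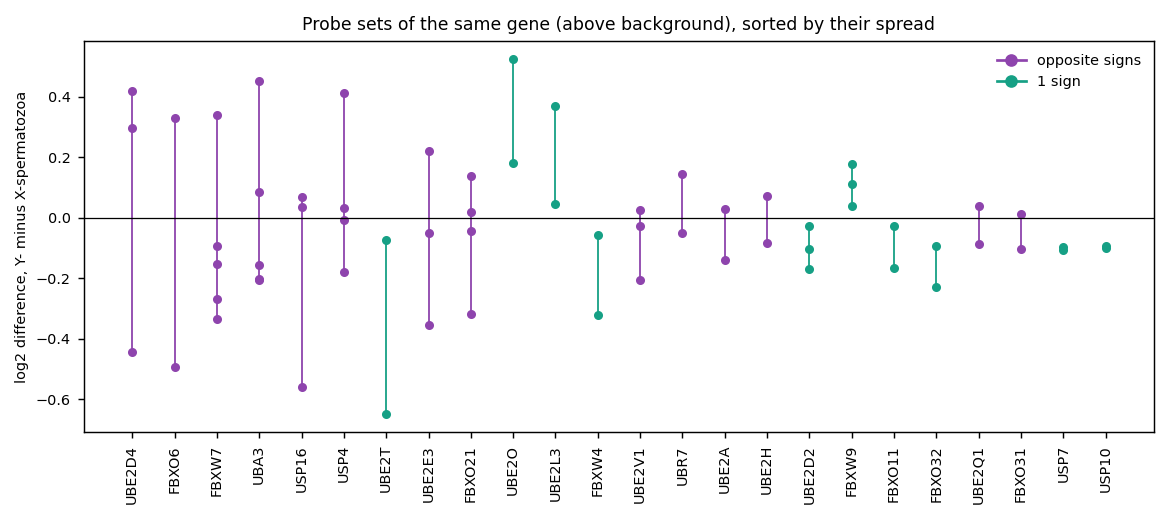
Log2 difference (vertical axis, Y- minus X-spermatozoa) of each probe set above background, for the 24 genes with more than 1, sorted from the widest spread on the left to the narrowest on the right. In 14 genes (purple) the probe sets lie on both sides of 0, as in UBE2D4 from -0.44 to 0.42, and in 10 (green) on 1 side.

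A few members differed between sows, a share no larger than among all probe sets. In the limma F test of the sow term, 11 of the 110 probe sets (10%) had an unadjusted p under 0.05, against 14.2% of all probe sets, and 0 passed after adjustment, as did 0% of all. When the test was run on the 11999 brighter probe sets alone, those above the median signal, 14 of 74 members (18.9%) had an unadjusted p under 0.05, against 29.4% of all, and 4 (5.41%) passed after adjustment, against 7.46% of all. These 4 were FBXO2, FBXL2, FBXW7 and USP10.

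FBXO2 measured 64.7, 145.5, 105.6 and 158.5 with Y-spermatozoa and 55.3, 104.5, 90.5 and 140.5 with X-spermatozoa. The order of the sows was the same in both groups, with sow 4 highest and sow 1 lowest (adjusted p = 0.00668 between sows in limma, bright probe sets alone). FBXL2, a membrane-bound F-box protein, measured 243.6, 239.3, 423.0 and 240.5 with Y-spermatozoa and 198.3, 269.9, 342.7 and 213.7 with X-spermatozoa. Sow 3 stood above the rest in both oviducts (adjusted p = 0.0474 in that limma test). One FBXW7 probe set measured 89.5, 102.7, 49.8 and 48.1 with Y-spermatozoa and 96.2, 122.5, 62.3 and 78.4 with X-spermatozoa, high in sows 1 and 2 and low in sows 3 and 4 (adjusted p = 0.0241). The FBXW7 probe sets did not all share that order. On the brightest, mean log2 levels of sows 1 to 4 were 7.60, 7.56, 7.30 and 7.45. On another they were 4.77, 5.07, 4.43 and 5.18, with sow 4 highest. USP10, a deubiquitinase of p53, measured 42.9, 66.5, 54.6 and 67.1 with Y-spermatozoa and 46.1, 67.5, 61.8 and 75.1 with X-spermatozoa, with sow 1 lowest in both groups (adjusted p = 0.0464). The other USP10 probe set, at 221.2, 263.1, 246.6 and 282.2 with Y-spermatozoa and 242.1, 293.0, 270.2 and 277.4 with X-spermatozoa, also had sow 1 lowest in both groups.

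Dimmer members showed a like pattern without passing the adjusted test. One UBA3 probe set measured 19.1, 22.6, 9.7 and 45.5 with Y-spermatozoa and 27.3, 22.3, 16.6 and 38.8 with X-spermatozoa, with sow 4 highest and sow 3 lowest in both groups. The 4 other UBA3 probe sets did not share that order. UBE2C was lowest in sow 1 in both groups, as was the dimmest UBE2D4 probe set. The probe sets in the plot of signals by sow were chosen for their small p between sows, so the closeness of a sow's oviducts in it follows from that choice. It did not hold throughout: UBE2C in sow 1 was 1.8 with Y-spermatozoa and 6.3 with X-spermatozoa, and the FBXW7 probe set in sow 4 was 48.1 with Y-spermatozoa and 78.4 with X-spermatozoa.

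**Figure D4:**
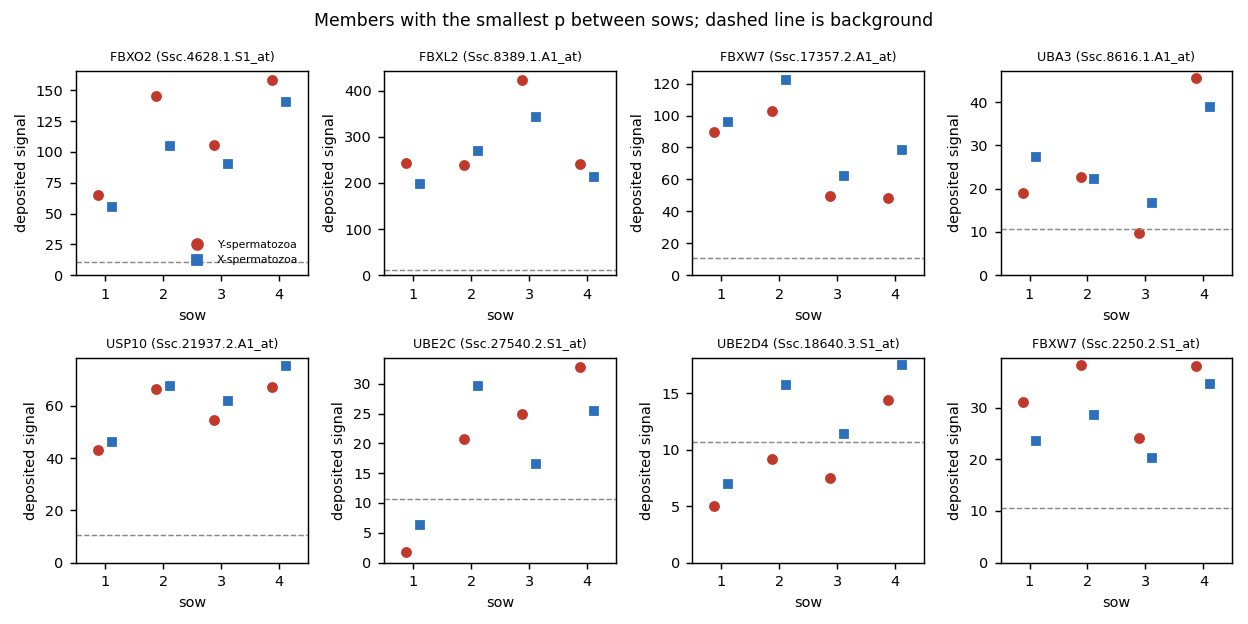
Deposited signal (vertical axis) by sow (horizontal axis) with Y-spermatozoa (red circles) and X-spermatozoa (blue squares) for the 8 probe sets above background with the smallest unadjusted p between sows; a dashed line marks background. In FBXO2 sow 4 has 158.5 and 140.5 and sow 1 has 64.7 and 55.3, while in the first FBXW7 panel the oviducts of sow 4, at 48.1 and 78.4, lie further apart.

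The scraped samples held different amounts of smooth muscle RNA, and members varied with it about as often as all probe sets did. ACTA2, smooth muscle actin, measured 766.5, 2562.3, 1111.4 and 2651 with Y-spermatozoa and 1178.8, 3359, 3148.3 and 1925.5 with X-spermatozoa. The sum of the 4 measured smooth muscle markers ran between 1129 and 3803.6 with Y-spermatozoa and between 1622.9 and 4609.1 with X-spermatozoa. Their mean log2 level was 8.26 ± 0.87 with Y-spermatozoa and 8.66 ± 0.75 with X-spermatozoa (SD, n = 4 each), a difference of -0.41 (p = 0.514 in an exact permutation test, two-sided). In a limma fit that held this level beside the sperm type, 10 of the 110 probe sets (9.09%) had a slope with an unadjusted p under 0.05, against 9.65% of all probe sets, and 0 passed after adjustment, against 0.0458% of all.

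FBXO32, known as atrogin-1, a muscle F-box protein, had the smallest p of these slopes on one of its 2 probe sets. It measured 72.1, 103.3, 81.3 and 103.3 with Y-spermatozoa and 75.7, 134.8, 128.1 and 92.5 with X-spermatozoa. It was high on the arrays where ACTA2 was high and low where ACTA2 was low, with a slope of 0.39 per log2 unit of marker level (limma unadjusted p = 0.00208). The other FBXO32 probe set had a slope of 0.22 (limma unadjusted p = 0.107). The differences between sperm types were -0.23 (standard error 0.22) and -0.09 (standard error 0.19), and FBXO32 was named after its values were seen. UBE2N had a slope of 0.27, UBE2M of 0.24 and another UBE2D2 probe set of 0.25, while FBXO7 had a slope of -0.29. The remaining UBE2D2 probe sets, the brightest among them, had slopes of 0.06 and -0.02.

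USP30 and the dim USP16 probe set ran the other way, with slopes of -0.38 and -0.46 (limma unadjusted p = 0.00302 and 0.00303). Holding the marker level fixed left USP30 lower with Y-spermatozoa, with a difference of -0.84. With it, 4 of the 110 (3.64%) passed the unadjusted threshold in limma, against 4.53% of all, namely USP30, USP16, FBXW4 and FBXO6. That fit was chosen after the marker values were seen, and the part of smooth muscle in any of these results was not tested.

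**Figure D5:**
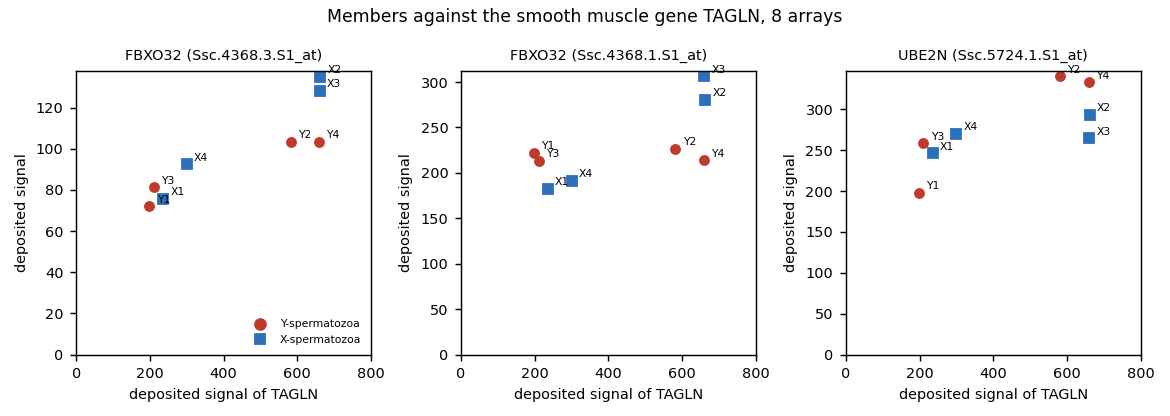
Deposited signal of 3 members (vertical axes) against that of TAGLN, a smooth muscle gene (horizontal axis), on 8 arrays (Y-spermatozoa red circles, X-spermatozoa blue squares). One FBXO32 probe set is lowest on Y1, at 72.1, and highest on X2, at 134.8, and the other FBXO32 probe set and UBE2N follow less closely.

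The wider ubiquitin system was read from 9 lists of other ligases, modifiers, complexes and receptors, holding 245 symbols, of which 114 were measured by 183 probe sets. At an unadjusted p under 0.05 in limma, 2 of the 183 were higher and 2 were lower with Y-spermatozoa, against 1.62% and 1.94% of all probe sets, and none passed after adjustment. The lists without a call were ubiquitin and its relatives (0 of 15), the cullin core (0 of 9), neddylation and the COP9 signalosome (0 of 12), the anaphase-promoting complex (0 of 12), HECT and RBR ligases (0 of 18) and ubiquitin receptors (0 of 24). RING and U-box ligases had 1 higher and 1 lower of 61, other deubiquitinases 1 higher of 22 and the SUMO pathway 1 lower of 10. UBB, a polyubiquitin gene, depended on the scaling. Its deposited signals were 7725.6, 7355.7, 7630.5 and 7105.4 with Y-spermatozoa and 6118.9, 7067.3, 6409.3 and 5711.6 with X-spermatozoa, which do not overlap, but after quantile normalization the groups overlapped and the difference was 0.00 (standard error 0.09, limma unadjusted p = 0.995).

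SENP6, a protease that trims SUMO chains, measured 81.1, 81.1, 91.2 and 72.7 with Y-spermatozoa and 121.6, 100.6, 95.6 and 99.3 with X-spermatozoa. It was lower with Y-spermatozoa in 4 of 4 sows and the groups did not overlap, with a difference of -0.34 (standard error 0.13, limma unadjusted p = 0.0284, adjusted p = 1). MARCH2, a membrane-bound RING ligase, measured 37.6, 40.5, 45.0 and 39.4 with Y-spermatozoa and 21.9, 37.3, 37.9 and 24.7 with X-spermatozoa, higher in 4 of 4 sows by 0.49 (standard error 0.20, limma unadjusted p = 0.0433). Its groups did not overlap after normalization, although the deposited signals did, at 37.6 in a Y-spermatozoa oviduct and 37.9 in an X-spermatozoa oviduct. PJA1, another RING ligase, measured 19.4, 24.5, 20.9 and 28.6 with Y-spermatozoa and 40.0, 32.0, 29.7 and 27.5 with X-spermatozoa, lower in 3 of 4 sows, a difference of -0.43 (standard error 0.18, limma unadjusted p = 0.0443). STAMBPL1, a deubiquitinase of the JAMM type, measured 23.8, 25.3, 23.1 and 23.8 with Y-spermatozoa and 23.1, 19.9, 21.2 and 19.2 with X-spermatozoa, higher in 4 of 4 sows by 0.26 (standard error 0.11, limma unadjusted p = 0.0449). With the sow as a block, the limma unadjusted p was 0.0480 for SENP6 and 0.0291 for MARCH2. PJA1 (0.0929) and STAMBPL1 (0.0676) were not called in that limma fit.

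The hybridisation controls are meant to be spiked in equal amount into every sample, though the study does not state the amount. They were a technical measure that moved with the sperm type. Their mean log2 signal after quantile normalization was 9.94 ± 0.11 with Y-spermatozoa and 9.73 ± 0.07 with X-spermatozoa (SD, n = 4 each, p = 0.0571 in an exact permutation test, two-sided), higher with Y-spermatozoa in 3 of 4 sows. On the deposited scale it was 9.98 ± 0.09 with Y-spermatozoa and 9.70 ± 0.09 with X-spermatozoa (SD, n = 4 each, p = 0.0286 in the same exact permutation test, the smallest it can give), higher with Y-spermatozoa in 4 of 4 sows and without overlap. With the normalized level as a covariate 5 of the 110 (4.55%) passed the unadjusted threshold in limma, against 3.77% of all. USP30 was the one that also passed without it. Its difference was -0.98 with the covariate, and the standard error was 0.38, against 0.22 without it. The part of this measure in the differences was not tested.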

How the data were processed

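Gene expression was measured on 8 Affymetrix Porcine arrays, 1 per oviduct, 4 with Y-spermatozoa and 4 with X-spermatozoa, grouped by the labels. The authors deposited 1 linear intensity for each of 24123 probe sets, made per the labels with MAS5 version 5.1. The methods of the study name RMA, limma and Benjamini-Hochberg correction, and probe-level values were not used here. Signals were quantile normalized, values under 1 were set to 1, log2 was taken, and 124 AFFX controls were left out. limma (version 3.58.1, R 4.3.3; lmFit and eBayes, two-sided) compared the group means over 23999 probe sets. The exact permutation tests enumerated 70 relabellings of the 8 arrays. Plots used Python 3.11.15 with matplotlib 3.10.9. Scripts were tested on simulated data.

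The labels number the biological replicates, which the study counts as sows. Arrays of the same number were taken as the oviducts of the same sow. Deviations from group means correlated by 0.132 to 0.187 within sows. A paired fit, with sow as block, was an alternative. Standard errors and intervals are those of the unpaired fit unless another fit is named for them.

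Symbols come from the platform annotation, and 58 of 63 genes matched a pig gene table. Members, lists and tests were chosen with earlier results of these data known. Genes named are those with an unadjusted p under 0.05, those in the study's list, the 8 with the smallest p between sows and a set of textbook members on their brightest probe set. Others are said to be named after their values were seen, or stand as further examples of a role.

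Alternatives were the sow as a block or random block, the deposited scaling, median centring, a pseudocount of 16, a floor at background, only probe sets above the median signal, eBayes with a trend, array weights, the hybridisation controls or smooth muscle markers as covariates, and fits without an array or a sow.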

Additional observations from a re-analysis of the deposited data

Results flagged for a closer look

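Among 44 groups of 4 arrays (22 named probe sets, Y-spermatozoa and X-spermatozoa), 2 had an array far from the others. In groups not picked by their values, chance gives this in about 1 in 20. Both probe sets found here were among those picked for a small p between sows, so that rate does not apply to them. UBE2C with Y-spermatozoa was at 1.8 in sow 1, against 20.8, 24.9 and 32.8 in the other sows, and its gap to the next array was 0.853 of the range on the log2 scale. The X-spermatozoa oviduct of the same sow was also the lowest of its group, at 6.3. FBXL2 with Y-spermatozoa was at 423.0 in sow 3, against 243.6, 239.3 and 240.5 in the other sows, a gap of 0.978 of the range, and the X-spermatozoa oviduct of that sow was the highest of its group, at 342.7.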

How the results depend on the processing

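The number of members called between sperm types, 1 in the unpaired limma fit, was 8 with the sow as a replicate block, 6 with a random block, 5 with the hybridisation controls and 4 with the smooth muscle markers as a covariate, 4 with a floor at background, 2 under the deposited scaling, 2 with a pseudocount of 16 and 0 among the 74 members above the median signal, where USP30 was not tested. It stayed at 1 with median centring, with a trend and with array weights. Leaving out an array or a sow gave 1 to 6: the highest without sow 1 in the paired fit, and 5 without the Y-spermatozoa array of sow 3. Over all probe sets the share called was 3.21 to 4.29% without an array and 4.54 to 5.03% without a sow, so the 6 members (5.45%) without sow 1 stand against 4.78% of all. In the unpaired fit the count was 3 without the Y-spermatozoa array of sow 1 or 4 or the X-spermatozoa array of sow 4, and 2 without the Y-spermatozoa array of sow 2 or the X-spermatozoa array of sow 1 or 2. In the paired fit, against 8, it was 3 without sow 2, 2 without sow 3 and 5 without sow 4. None of the 110 passed after adjustment in any of these fits, and USP30 was called in every fit that tested it. The count over the other pathway lists, 4, was 9 with the random block and 1 to 7 when arrays or sows were left out: 1 without the Y-spermatozoa array of sow 1, 2 or 4, 2 without the X-spermatozoa array of sow 1 and 7 without the Y-spermatozoa array of sow 3. The count of members passing the adjusted test between sows, 0, was 1 with a pseudocount of 16, where 414 of all 23999 passed, and 4 above the median signal, where 895 of 11999 passed, and 0 without any sow. The F-box median turned to 0.022 with median centring and 0.012 above the median signal.

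Of 635 comparisons of a single probe set with an alternative, 565 kept their side of the threshold without a turn of sign (among them the dim FBXL4 probe set, whose difference was 0 with the floor at background), 27 newly passed it and 43 turned sign. UBE2D3 turned to 0.027 with centring, 0.00064 with array weights and 0.14 with the hybridisation controls. UBE2C turned to 0.0093 with a pseudocount, 0.15 with the floor, 0.62 with the hybridisation controls and 0.20 with the muscle markers. With the hybridisation controls UBA3 turned to 0.15, USP10 to 0.040, FBXL2 to -0.070, UBE2D2 to 0.13 and UBE2K to 0.14. Standard errors were larger in that fit, as for this dim UBA3 probe set, at 0.85 against 0.48 without the covariate. With the muscle markers USP10 turned to 0.0099 and UBE2K to 0.029. Leaving out an array or a sow moved other differences across 0, over ranges of -0.051 to 0.31 for FBXL2, -0.22 to 0.052 for the brighter FBXO32 probe set, -0.57 to 0.17 for the dim UBA3 probe set, -0.75 to 0.67 for UBE2C, -0.080 to 0.045 for UBE2D3, -0.14 to 0.083 for UBE2K, -0.046 to 0.17 for UBE2M, -0.068 to 0.20 for UBE2N, -0.016 to 0.079 for UBE2V1 and -0.23 to 0.041 for USP10. None of these passed in the unpaired fit of all arrays. The cause was not tested.

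Signals near background limit USP30, UBE2C, the dim USP16 probe set and the dimmest UBE2D4 probe set most, and 4 sows limit all of them.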
